A study of Drosophila melanogaster with 24 samples.

Results

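The indirect flight muscles (IFM) of Drosophila melanogaster were followed from the pupa to the adult in the 6 control libraries of that tissue, out of 24 libraries in the series. The 6 were taken by their labels: 3 libraries of pupae at 30 h after puparium formation (APF) and 3 of adults at 15 days. The series crosses these stages with a second tissue, the ventral nerve cord (VNC), and with a larval diet of 5 µM methylmercury (MeHg), in 8 groups of 3 libraries. Control animals ate food with the solvent DMSO only (0 µM MeHg) from the first larval instar, and adults were moved to food free of MeHg at eclosion. No strain or genotype is given in the labels, and the sexes were mixed in all groups. Animals were fixed in Methacarn before the dorsal longitudinal and dorsoventral muscles were dissected, and each library pooled tissue of 50 animals, so that a p-value below measures the spread between such pools. The 3 adult libraries carry 1 tag in their titles (7_10) and the pupal libraries 2 others (7_1 for replicate 1, 7_7 for replicates 2 and 3). What the tags stand for is not stated, and tag and stage cannot be told apart.

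The indirect flight muscles deform the thorax to beat the wings. They are fibrillar muscles in which stretch, more than a calcium pulse for each beat, triggers contraction, and they burn sugar and proline in a very large mass of mitochondria. At the pupal stage sampled here myoblasts have fused into myotubes anchored to tendon cells, and myofibrils begin to assemble. Later sarcomeres are added, grow and take up flight-specific protein isoforms, while mitochondria expand between them.

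Library totals were 17357872, 17069392 and 29370338 counts in pupae and 35272582, 30909754 and 36295687 in adults. Both mitochondrial rRNA genes took most of the ribosomal RNA counts, and counts on the mitochondrial genome made up 1.80% to 2.93% of the pupal libraries and 5.20% to 8.08% of the adult ones. The rank correlation over 7593 genes was 0.982 to 0.991 between pupal libraries, 0.961 to 0.976 between adult libraries and 0.508 to 0.560 between stages. The first principal component held 94.9% of the variance and separated the stages. The summed level of 12 muscle marker genes was 68714 to 78432 CPM (the count of a gene as a share of its library's total, scaled to 1e+06) in pupae and 62304 to 83072 CPM in adults. These sums overlapped, although 8 of the 12 genes were called lower in adults and 3 higher.

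Of 11347 genes tested, 74.4% were called at an adjusted p under 0.05, 37.7% higher and 36.7% lower in adults. Among them 27.6% of all tested genes were at least 2-fold higher and 24.8% at least 2-fold lower, and an 8-fold difference was passed by 11.7% and 6.58%. The median log2 fold change over all tested genes was -0.04, and the CPM ranges of the stages were separate for 75.9% of genes. A called gene is therefore the usual case here, and the counts of each gene group below stand against these shares. Group counts are over members with enough counts to be tested. Untested were 75 of 120 cuticle protein genes, 13 of 48 proteasome, 8 of 93 cytosolic ribosome, 11 of 21 oxidative phosphorylation paralog and 4 of 21 Notch genes, and at most 2 in any other list that is not one of tissue markers. In these bulk samples fewer cells of a type and less RNA of a gene per cell cannot be told apart. Levels are CPM scaled by TMM, listed for replicates 1, 2 and 3 in that order, and each fold change is log2 of adult over pupa. The value after ± is an approximate standard error, the absolute log2 change divided by the square root of the test's F statistic. It is unreliable where a group holds few or no counts. Each adjusted p comes from edgeR's quasi-likelihood test with Benjamini-Hochberg adjustment over all tested genes.

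**Figure D1:**
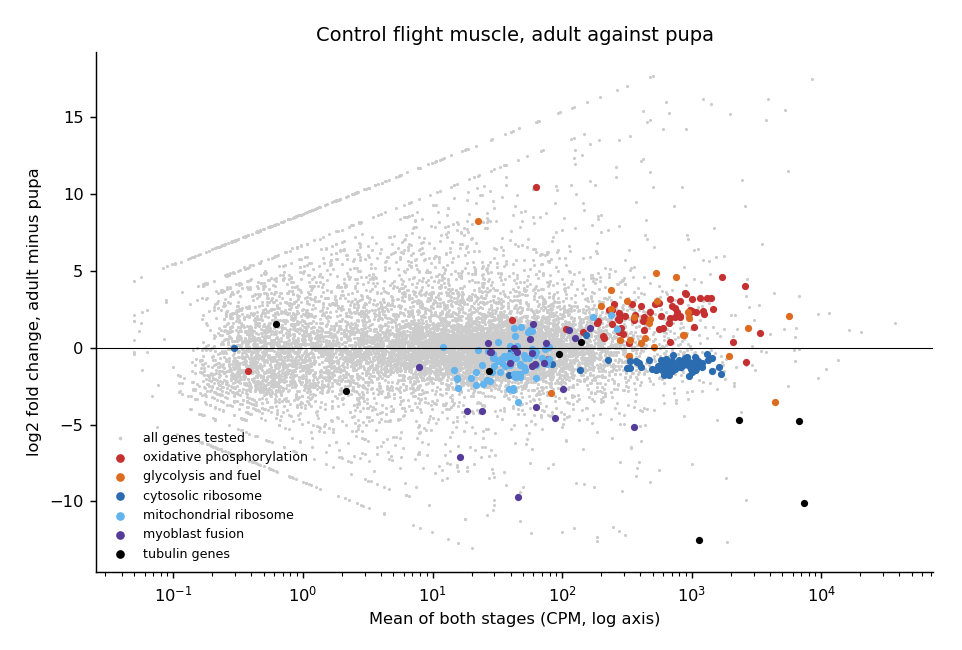
Log2 fold change of adult over pupal control flight muscle for every tested gene (y axis) against its mean CPM over both stages (log x axis), with members of a few gene lists in colour. Oxidative phosphorylation genes lie almost wholly above 0, with a median of 2.05, and cytosolic ribosomal protein genes almost wholly below it, with a median of -1.10.

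The first question was which parts of the contractile apparatus differ between the forming and the working muscle. Structural genes did not share a direction. Of 10 thick filament and connecting filament genes, 7 rose and 2 fell (median 1.19), and of 15 thin filament genes 7 rose and 8 fell (median -0.44, and -0.27 without adult replicate 2), against a median of -0.04 over all genes. Of 11 genes of the Z-disc and of myosin assembly, 3 rose and 3 fell (median -0.24). Without adult replicate 1 or 2 or pupal replicate 1 that median was -0.15, -0.11 or -0.16.

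Among thick filament genes, Mhc (Dmel_CG17927, dm6 chromosome 2L, 16766566 to 16788766), the single muscle myosin heavy chain, stood at 15928, 18842 and 16643 CPM in pupae and 11774, 7419.7 and 9705 CPM in adults. All adult libraries were lower (log2 fold change -0.83 ± 0.19, adjusted p = 0.00191). The regulatory light chain Mlc2 also fell (log2 fold change -0.85 ± 0.17, adjusted p = 0.000818). Against a 2-fold threshold, and with all 24 libraries in the fit, neither call remained. Mlc1, the essential light chain, did not pass (log2 fold change 0.12 ± 0.14, adjusted p = 0.468).

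The proteins that shape and stiffen the thick filament were higher in adults. Mf, myofilin of the filament core, had 81.7, 103 and 107 CPM in pupae and 2655, 2245 and 3049 CPM in adults, and the ranges lay far apart (log2 fold change 4.77 ± 0.17, adjusted p = 8.61e-10). The flight muscle protein fln, flightin, which sets filament length and stiffness, had 95.9, 103 and 114 CPM and 502, 586 and 689.6 CPM (log2 fold change 2.51 ± 0.23, adjusted p = 1.76e-06). Prm, paramyosin, rose by 1.34 (adjusted p = 0.000709). The titin-like connecting filament genes rose less: sls by 1.18 (adjusted p = 2.57e-05) and bt, projectin, by 0.99 (adjusted p = 0.00031). The giant kinase genes Obsc, obscurin of the M-line, and Strn-Mlck rose by 1.21 and 1.24 (adjusted p = 5.24e-05 and 1.53e-05).

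The actin genes shifted in their make-up. Act88F (Dmel_CG5178, dm6 chromosome 3R, 15439969 to 15442177), the actin of flight muscle thin filaments, had 13518, 16169 and 15376 CPM in pupae and 3269.5, 3399 and 4917 CPM in adults, lower in every adult library (log2 fold change -1.96 ± 0.21, adjusted p = 4.56e-06). Act57B, an actin of larval and other adult muscles, had 361, 286 and 319 CPM in pupae and 2102, 1806 and 2368 CPM in adults, higher in every adult library (log2 fold change 2.70 ± 0.13, adjusted p = 8.59e-09). Per kb of exon, which allows levels of different genes to be compared, Act88F fell from 9418 to 2421 CPM per kb and Act57B rose from 187 to 1213. Act88F thus made up 92.8% ± 1.32 (SD, n = 3) of the summed level of 6 actin genes per kb in pupae and 59.2% in adults, while Act57B went from 1.86% to 30.0%.

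Of the other actins, Act79B, typical of tubular adult muscles, rose (log2 fold change 1.87 ± 0.34, adjusted p = 0.000543) and Act87E fell (log2 fold change -3.31 ± 0.22, adjusted p = 1.08e-07). The cytoplasmic actin Act42A fell (log2 fold change -1.94 ± 0.22, adjusted p = 1.01e-05), and Act5C did not pass, with 912, 836 and 884 CPM in pupae and 710.1, 950.1 and 601 CPM in adults (log2 fold change -0.22 ± 0.17, adjusted p = 0.248). Actin genes are near-identical in their coding parts, so the split of reads between them is uncertain.

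Troponin C, the calcium sensor of the thin filament, changed its isoform almost completely. TpnC73F (Dmel_CG7930, dm6 chromosome 3L, 17046063 to 17048390), known from larval and other body muscles, had 1121, 1252 and 953 CPM in pupae and 2.20, 5.85 and 5.19 CPM in adults (log2 fold change -7.98 ± 0.43, adjusted p = 3.22e-08). TpnC4, the isoform tied to stretch activation in flight muscle, had 0.426, 1.09 and 0.345 CPM in pupae and 274, 253 and 363 CPM in adults (log2 fold change 8.98 ± 0.40, adjusted p = 7.20e-09). TpnC41C, the second isoform of adult flight muscle, had 40.5, 37.7 and 35.3 CPM and 219, 186 and 219.9 CPM (log2 fold change 2.46 ± 0.18, adjusted p = 2.06e-07). In each of these the stages were separate by several-fold.

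Per kb, TpnC73F made up 98.0% ± 0.175 (SD, n = 3) of the troponin C total in pupae and 0.899% in adults. TpnC4 went from 0.0656% to 74.1% and TpnC41C from 1.90% to 23.8% of that total. TpnC25D rose to 4.20, 7.82 and 3.64 CPM from under 1 CPM (log2 fold change 6.07 ± 0.69, adjusted p = 8.48e-06). TpnC47D stayed under 2 CPM, and its call (log2 fold change 2.46 ± 0.85, adjusted p = 0.0208) was lost without adult replicate 3 (adjusted p = 0.0884).

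The remaining thin filament genes were mostly lower in adults. The tropomyosin genes Tm2 and Tm1 fell by 2.84 and 1.15 (adjusted p = 4.49e-08 and 3.50e-05), with Tm2 at 1708, 2230.0 and 1335 CPM in pupae and 265, 243 and 229 CPM in adults. Troponin T (up) and troponin I (wupA) fell by 0.90 and 0.74 (adjusted p = 0.000175 and 0.000185). The filament lengthening gene sals rose (log2 fold change 1.01 ± 0.20, adjusted p = 0.000723). The pointed-end cap tmod was called lower (log2 fold change -0.44 ± 0.16, adjusted p = 0.029), a call lost in 9 of 16 alternatives, among them those without adult replicate 2 or 3 or pupal replicate 1 or 3 (adjusted p = 0.122, 0.138, 0.171 and 0.102).

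At the Z-disc, which holds the thin filaments of neighbouring sarcomeres together, the Zasp scaffold genes went in opposite directions. Zasp66 (Dmel_CG6416, dm6 chromosome 3L, 8624371 to 8638813) had 10.5, 6.79 and 8.81 CPM in pupae and 5750.0, 4325 and 5437 CPM in adults (log2 fold change 9.21 ± 0.23, adjusted p = 1.69e-10). Zasp52 had 653, 722 and 677 CPM and 9037, 6303 and 8386 CPM (log2 fold change 3.53 ± 0.15, adjusted p = 3.36e-09), whereas Zasp67 had 171, 246 and 165 CPM and 36.3, 25.6 and 27.4 CPM (log2 fold change -2.71 ± 0.23, adjusted p = 9.45e-07). The ranges of all Zasp genes were separate.

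The muscle LIM protein gene Mlp84B rose (log2 fold change 1.72 ± 0.18, adjusted p = 3.43e-06), and Mlp60A did not pass (log2 fold change -0.32 ± 0.20, adjusted p = 0.181). The cross-linker Actn (log2 fold change -0.29 ± 0.15, adjusted p = 0.0908), the myosin chaperone unc-45 (log2 fold change -0.24 ± 0.11, adjusted p = 0.0677) and the capping subunits cpa and cpb (log2 fold change -0.01 ± 0.08 and -0.06 ± 0.08, adjusted p = 0.928 and 0.546) did not pass. Filamin, cher, was called lower (log2 fold change -0.49 ± 0.14, adjusted p = 0.00687), and not without adult replicate 3 (adjusted p = 0.0752). The ubiquitin ligase gene tn was called lower too (log2 fold change -0.43 ± 0.16, adjusted p = 0.0277), and lost the call in 11 of 16 alternatives, with an adjusted p of 0.116 and 0.0962 without adult replicate 2 or 3 and of 0.127 and 0.0887 without pupal replicate 1 or 3.

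**Figure D2:**
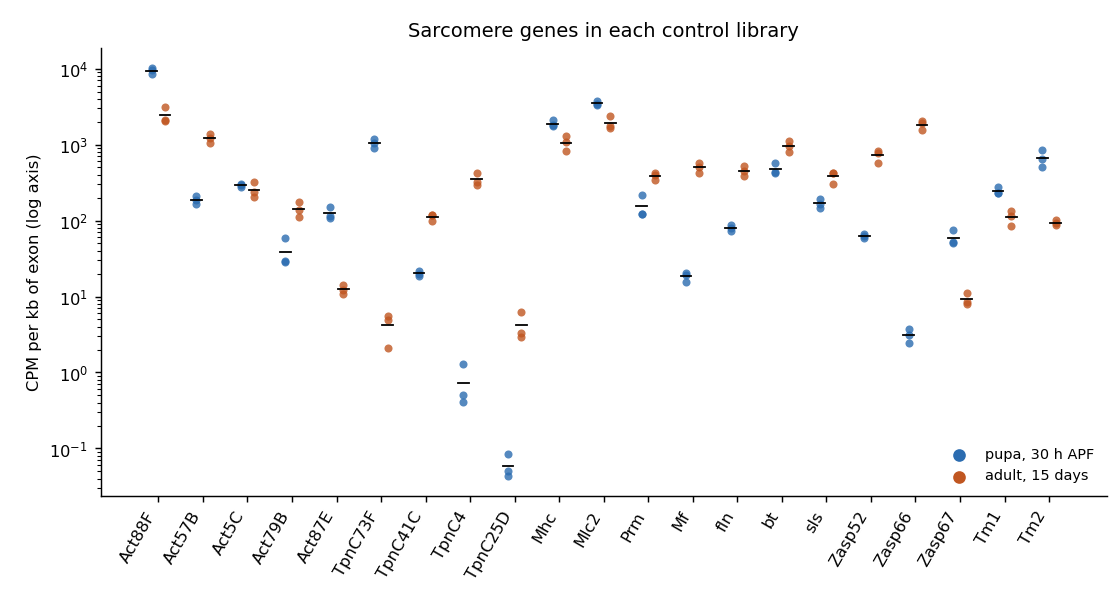
Levels of sarcomere genes in each of the 6 control libraries (CPM per kb of exon, log y axis), one point per library. TpnC4 and Zasp66 lie far higher in the adult libraries and TpnC73F far lower, while Act88F remains the most abundant of these actins per kb at both stages.

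Tubulin genes were among the steepest falls. Of 9 tested members 6 fell and 2 rose. The muscle isoform betaTub60D, beta-3 tubulin, had 14508, 15522 and 13661 CPM in pupae and 8.50, 13.3 and 17.2 CPM in adults (log2 fold change -10.13 ± 0.44, adjusted p = 4.82e-09), and alphaTub85E had 2338, 2096 and 2353 CPM and 0.477, 0.076 and 0.548 CPM (log2 fold change -12.53 ± 0.37, adjusted p = 4.12e-10). The widely expressed genes alphaTub84B and betaTub56D fell by 4.75 and 4.71 (adjusted p = 8.85e-11 and 1.56e-10). alphaTub84B and its near-identical copy alphaTub84D, which rose by 0.37 (adjusted p = 0.0161), can share reads.

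Genes of myoblast fusion, which build the syncytial fibre, were mostly lower in adults: of 25, 16 fell and 6 rose (median -0.98). All 5 cell surface genes fell, with a median of -4.13. kirre, the receptor of founder cells, had 154, 148 and 205 CPM in pupae and 6.08, 7.52 and 7.48 CPM in adults (log2 fold change -4.59 ± 0.19, adjusted p = 2.05e-09). Its partner sns on fusing myoblasts had 202, 117 and 212 CPM and 24.2, 27.5 and 29.4 CPM (log2 fold change -2.71 ± 0.25, adjusted p = 1.55e-06). The stages did not overlap for either gene. hbs and rst fell by 4.13 and 3.88, and the membrane protein gene sing fell by 7.12 (adjusted p = 3.03e-08, 6.33e-09 and 8.15e-09).

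The adaptor rols, which links receptor to cytoskeleton, fell by 5.15 (adjusted p = 1.49e-07). lmd, the transcription factor of fusion-competent myoblasts, had 94.7, 73.1 and 104 CPM in pupae and 0.127, 0.114 and 0.0645 CPM in adults (log2 fold change -9.74 ± 0.88, adjusted p = 3.93e-06). Of all 20 genes that act inside the cell, rols and lmd included, 11 fell and 6 rose. Among those that rose, siz, Crk, Arf6 and mbc did so by 1.56, 1.28, 1.13 and 0.64 (adjusted p = 1.16e-07, 4.73e-07, 2.80e-06 and 0.00312). Arp3 and WASp did not pass (adjusted p = 0.834 and 0.211).

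Genes that anchor muscle to tendon moved in both directions. Of 14 integrin and adhesion plaque genes 6 rose and 5 fell, near the shares of 37.7% and 36.7% over all tested genes. The linkers Ilk (66.2, 69.1 and 72.3 CPM in pupae and 258, 252 and 381 CPM in adults) and rhea, talin, rose by 2.10 and 1.63 (adjusted p = 1.25e-07 and 8.32e-07), and Fit2 fell while its paralog Fit1 rose (-2.54 and 1.07, adjusted p = 1.13e-07 and 1.58e-06). The integrin beta subunit mys fell by 0.39 (adjusted p = 0.00381), and kon, which acts when myotubes find tendons, fell by 1.39 (adjusted p = 2.72e-06).

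Of 12 matrix and tendon genes 9 fell and 3 rose. The laminin chains LanA, LanB1, LanB2 and wb fell by 2.14, 2.38, 2.69 and 3.19, with LanA at 782, 674 and 855 CPM in pupae and 146, 170.2 and 207 CPM in adults (adjusted p = 1.06e-07, 1.73e-07, 1.29e-08 and 7.70e-08). Thrombospondin, Tsp, the matrix ligand at the muscle to tendon junction, fell by 2.11 (adjusted p = 1.93e-08). The collagen IV chains vkg and Col4a1 rose by 2.42 and 2.26 (adjusted p = 3.63e-08 and 1.52e-07). Collagen IV is made largely by fat body and haemocytes, of whose markers 10 of 16 and 9 of 10 were called higher in adults (values below), and their part in this rise was not tested.

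Regulators of flight muscle fate were lower in adults more often than higher. Of 28, 17 fell and 4 rose (median -0.55). salm, the zinc finger factor that selects fibrillar fate, had 735, 766 and 728 CPM in pupae and 235, 147 and 183 CPM in adults (log2 fold change -1.98 ± 0.21, adjusted p = 5.71e-06). Its paralog salr had 719, 824 and 873 CPM and 65.9, 42.9 and 48.1 CPM (log2 fold change -3.94 ± 0.22, adjusted p = 1.76e-08). bru1 (Dmel_CG31762, dm6 chromosome 2L, 12175004 to 12313438), the splicing factor that sets fibrillar isoforms, had 3425, 3249.6 and 4062 CPM and 662, 510.4 and 722 CPM (log2 fold change -2.50 ± 0.17, adjusted p = 1.01e-07). The ranges of these genes were separate, and every adult library still held reads of each.

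Mef2, the core muscle transcription factor, fell by 1.74 (adjusted p = 2.25e-07), and sd fell by 2.25 (adjusted p = 7.68e-08), while its partner vg did not pass (log2 fold change -0.04 ± 0.15, adjusted p = 0.819). E2f1 fell by 1.97 and its repressor Rbf fell by 0.76 (adjusted p = 8.59e-09 and 1.07e-05). ewg, Chi and zfh1 fell by 1.08, 0.92 and 0.81, and ct fell too, from 42.0 ± 8.14 to 21.0 ± 4.38 CPM (SD, n = 3; adjusted p = 2.31e-05, 3.52e-05, 2.63e-05 and 0.000226), and the nuclear receptor Hr39 fell by 1.63 (adjusted p = 4.77e-08). twi, the factor of muscle precursors, was at or below 1.17 CPM in pupae and below it in adults (log2 fold change -2.75 ± 0.77, adjusted p = 0.00698).

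The rises were hry, a bHLH repressor, at 39.1, 31.8 and 34.3 CPM in pupae and 199.9, 179 and 183 CPM in adults (log2 fold change 2.42 ± 0.14, adjusted p = 3.06e-08), ap (log2 fold change 1.02 ± 0.22, adjusted p = 0.00153), the splicing factor Rbfox1 (log2 fold change 0.75 ± 0.16, adjusted p = 0.00139) and Lim3 (log2 fold change 4.63 ± 0.69, adjusted p = 0.000129). Lim3 had 14.6, 36.0 and 6.03 CPM in the adult libraries, highest in replicate 2 and lowest in replicate 3, the order also of the gut markers below, whose part in this was not tested. exd, mbl, ara, caup, tup and nau did not pass (adjusted p = 0.106, 0.664, 0.134, 0.172, 0.68 and 0.657).

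hth, how, Him and Dp were called lower with small changes (-0.34, -0.28, -0.98 and -0.18, adjusted p = 0.0117, 0.0151, 0.0358 and 0.0323), and these calls did not survive the removal of single libraries. Without adult replicate 3 the adjusted p was 0.136, 0.0954, 0.145 and 0.531, and without pupal replicate 1 it was 0.0731, 0.192, 0.243 and 0.391.

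The steroid hormone ecdysone drives metamorphosis, and genes of its receptor and response were mostly lower in adults: of 29, 21 fell and 5 rose (median -1.19). EcR, the receptor, fell from 289, 246 and 319 CPM to 123, 107 and 110.3 CPM (log2 fold change -1.33 ± 0.11, adjusted p = 6.10e-07), and its partner usp did not pass (log2 fold change 0.24 ± 0.12, adjusted p = 0.0809). Among nuclear receptors of the response, Eip78C had 615, 818 and 585 CPM in pupae and 7.48, 6.65 and 7.48 CPM in adults (log2 fold change -6.54 ± 0.20, adjusted p = 5.24e-10). Hr38 had 665, 1009 and 657 CPM and 22.8, 21.9 and 24.9 CPM (log2 fold change -5.07 ± 0.36, adjusted p = 2.76e-07), and Hr4 fell by 5.31 (adjusted p = 1.07e-07). Every pupal library exceeded every adult library in all 3.

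Kr-h1, a zinc finger target of juvenile hormone, went the other way, from 0.266, 0.163 and 0.188 CPM in pupae to 101, 89.1 and 99.2 CPM in adults (log2 fold change 8.86 ± 0.38, adjusted p = 4.49e-09). Cyp18a1, which inactivates ecdysone, rose by 4.28, ftz-f1 by 1.12 and Eip93F by 0.93 (adjusted p = 8.58e-06, 3.41e-05 and 5.06e-06).

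Notch pathway genes were lower in adults in 16 of 17 cases, with none higher (median -2.27). The receptor N had 187, 209.7 and 210.4 CPM in pupae and 34.9, 39.5 and 40.0 CPM in adults (log2 fold change -2.41 ± 0.10, adjusted p = 2.05e-09). The ligands Ser and Delta fell by 2.24 and 1.64 (adjusted p = 0.000165 and 1.74e-07), the co-activator mam fell by 2.27 and the ubiquitin ligase neur fell by 2.67 (adjusted p = 3.64e-09 and 3.31e-09). The tested E(spl) target genes all fell, from pupal levels of at most 8.58 CPM. mib1 did not pass (log2 fold change 0.04 ± 0.08, adjusted p = 0.652).

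The second large set of changes concerned energy supply. Genes of oxidative phosphorylation rose in 67 of 70 cases and fell in 2 (median 2.05). The counts were 33 of 33 for complex I, 4 of 4 for complex II, 9 of 9 for complex III, 9 of 10 for complex IV and 11 of 12 for complex V, the ATP synthase. Cyt-c-p, the main cytochrome c, had 124, 160.0 and 124 CPM in pupae and 2904, 3149 and 3742 CPM in adults (log2 fold change 4.58 ± 0.17, adjusted p = 1.04e-09). ND-51, a core subunit that takes electrons from NADH, had 278, 318 and 292 CPM and 4591, 4241 and 5818 CPM (log2 fold change 4.04 ± 0.15, adjusted p = 1.18e-09). For both, the lowest adult library exceeded the highest pupal one by more than 10-fold.

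The Rieske protein RFeSP of complex III rose by 3.22, SdhC of complex II by 2.87 and cype of complex IV by 3.05 (adjusted p = 1.16e-08, 3.54e-08 and 6.33e-09). Changes were smaller in the catalytic ATP synthase subunits, with ATPsynbeta at 0.92 and blw, the alpha subunit, at 0.35 (adjusted p = 1.02e-05 and 0.0265). ATPsynC fell by 0.92 and COX7A fell by 0.74 (adjusted p = 7.00e-06 and 0.00187), and its paralog COX7AL2 rose by 2.63 (adjusted p = 4.91e-08). The calls of blw, ATPsyngamma and ND-ACP were lost without pupal replicate 3 (adjusted p = 0.0805, 0.0591 and 0.105). That of blw was lost without adult replicate 1 (0.0514) and that of ND-ACP without adult replicate 2 or pupal replicate 1 (0.0595 and 0.0509). ND-B8 was near 0 in pupae and had 106, 117 and 155 CPM in adults (log2 fold change 10.43 ± 0.40, adjusted p = 1.91e-09), but it overlaps the gene Gs1l on the opposite strand, and whether counting used the strand is not given in the sources used here.

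Of 20 genes of the tricarboxylic acid cycle and its pyruvate entry, 16 rose and 1 fell (median 1.45). Ogdh, of the 2-oxoglutarate dehydrogenase complex, had 227, 235 and 219 CPM in pupae and 5265, 5236 and 4837 CPM in adults (log2 fold change 4.49 ± 0.14, adjusted p = 5.24e-10), and the aconitase mAcon1 rose by 2.79 (adjusted p = 7.81e-09). The groups were far apart for both. The exception was ScsbetaG, the GTP-forming succinyl-CoA ligase subunit, which fell by 3.61 (adjusted p = 8.59e-09) while the ATP-forming ScsbetaA rose by 1.77 (adjusted p = 9.62e-09). Citrate synthase, kdn, did not pass (log2 fold change -0.05 ± 0.17, adjusted p = 0.796).

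Of 26 genes of glycolysis, glycogen, trehalose and the shuttles that feed mitochondria, 21 rose and 4 fell (median 1.74). Glyp, glycogen phosphorylase, had 37.9, 30.8 and 36.2 CPM in pupae and 1084, 981 and 997 CPM in adults (log2 fold change 4.87 ± 0.14, adjusted p = 3.19e-10), and UGP, which makes the glucose donor for glycogen, had 56.3, 61.4 and 57.9 CPM and 1302, 1287 and 1759.6 CPM (log2 fold change 4.63 ± 0.15, adjusted p = 5.38e-10). Both were higher in every adult library. The mitochondrial glycerol phosphate oxidase Gpo1 and the proline oxidase slgA rose by 3.05 and 3.03 (adjusted p = 7.18e-09 and 1.75e-09).

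Pfk and Ald1 of glycolysis rose by 2.53 and 2.07 (adjusted p = 2.30e-08 and 1.23e-07). Ldh, which makes lactate, fell by 2.95, and the phosphagen kinase gene Argk1 (Dmel_CG32031, dm6 chromosome 3L, 9048781 to 9066027) had 8733, 8124 and 7599 CPM in pupae and 749, 673 and 688 CPM in adults (log2 fold change -3.54 ± 0.13, adjusted p = 9.61e-10; adjusted p of Ldh = 9.41e-06). Treh, the trehalase, and Gapdh1 also fell (-0.54 and -0.52, adjusted p = 0.000913 and 0.00221), and Tpi did not pass (adjusted p = 0.894).

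Fatty acid oxidation stood apart from the other fuel pathways: 9 of 19 genes rose and 7 fell (median 0.21). Acsl, which activates fatty acids, rose by 2.47, and CG3902 and Mcad rose by 2.29 and 1.30 (adjusted p = 4.18e-08, 4.06e-07 and 3.42e-07). The trifunctional protein subunits Mtpalpha and Mtpbeta fell by 1.90 and 1.06, and scu fell from 249.5 ± 14.4 to 62.3 ± 7.05 CPM (SD, n = 3; adjusted p = 3.13e-07, 2.29e-06 and 3.68e-08). Carnitine palmitoyltransferase, whd, the entry step, did not pass (log2 fold change 0.08 ± 0.12, adjusted p = 0.556).

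Mitochondrial genes split by role. Of 10 carriers of the inner and outer membrane 8 rose, with aralar1, the aspartate and glutamate carrier, at 13.1, 12.9 and 7.83 CPM in pupae and 236, 225 and 214 CPM in adults (log2 fold change 4.32 ± 0.28, adjusted p = 1.12e-07). The ATP carrier sesB rose by 1.79 while its paralog Ant2 and the pore gene porin fell by 1.96 and 1.13 (adjusted p = 1.85e-07, 0.000183 and 7.59e-06). Of 8 genes of dynamics and quality control 4 rose and 2 fell. Pink1 and the fusion gene Marf rose by 3.51 and 2.18, and the fission gene Drp1 fell by 1.56 (adjusted p = 1.52e-09, 4.33e-08 and 5.23e-08).

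Of 11 genes of mitochondrial DNA upkeep and biogenesis, 7 fell and 1 rose. The replicative helicase mtDNA-helicase had 39.3, 42.0 and 40.9 CPM in pupae and 3.53, 3.76 and 2.64 CPM in adults (log2 fold change -3.62 ± 0.17, adjusted p = 4.75e-09), and mtSSB, PolG1 and srl, the PGC-1 homologue, fell by 2.67, 1.95 and 1.75 (adjusted p = 1.83e-08, 4.15e-08 and 3.85e-07). The ranges of all 4 were separate. TFAM, which packs mitochondrial DNA, did not pass (log2 fold change 0.30 ± 0.14, adjusted p = 0.0757).

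Growth machinery was lower in adults. Of 85 cytosolic ribosomal protein genes 82 fell and 1 rose (median -1.10), and of 72 mitochondrial ribosomal protein genes 52 fell and 9 rose (median -0.75). RpLP0 of the cytosolic ribosome had 1771, 1691 and 1768 CPM in pupae and 971, 1051 and 1298 CPM in adults (log2 fold change -0.66 ± 0.11, adjusted p = 0.000165). Of the mitochondrial ones mRpL39 fell by 3.52 and mRpS5 rose by 2.12 (adjusted p = 5.88e-10 and 2.91e-07). The proteasome was lower to a lesser degree, with 22 of 35 genes lower and none higher (median -0.51). Without single libraries the median over these 35 lay between -0.60 and -0.40. Its largest falls above 5 CPM were those of Prosalpha6 and Rpn11, at -1.80 and -1.65 (adjusted p = 6.86e-08 and 7.32e-08).

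Of 41 cell cycle genes 26 fell and 6 rose (median -1.16), and most were low at both stages. stg, the phosphatase that starts mitosis, had 85.5, 75.6 and 86.4 CPM in pupae and 2.77, 2.81 and 1.90 CPM in adults (log2 fold change -5.05 ± 0.16, adjusted p = 5.24e-10), and Cdk1 and polo fell by 4.51 and 3.14 (adjusted p = 1.61e-06 and 2.63e-05). The helicase subunit dpa and RnrL rose by 2.48 and 1.86 (adjusted p = 1.07e-06 and 4.55e-05).

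**Figure D3:**
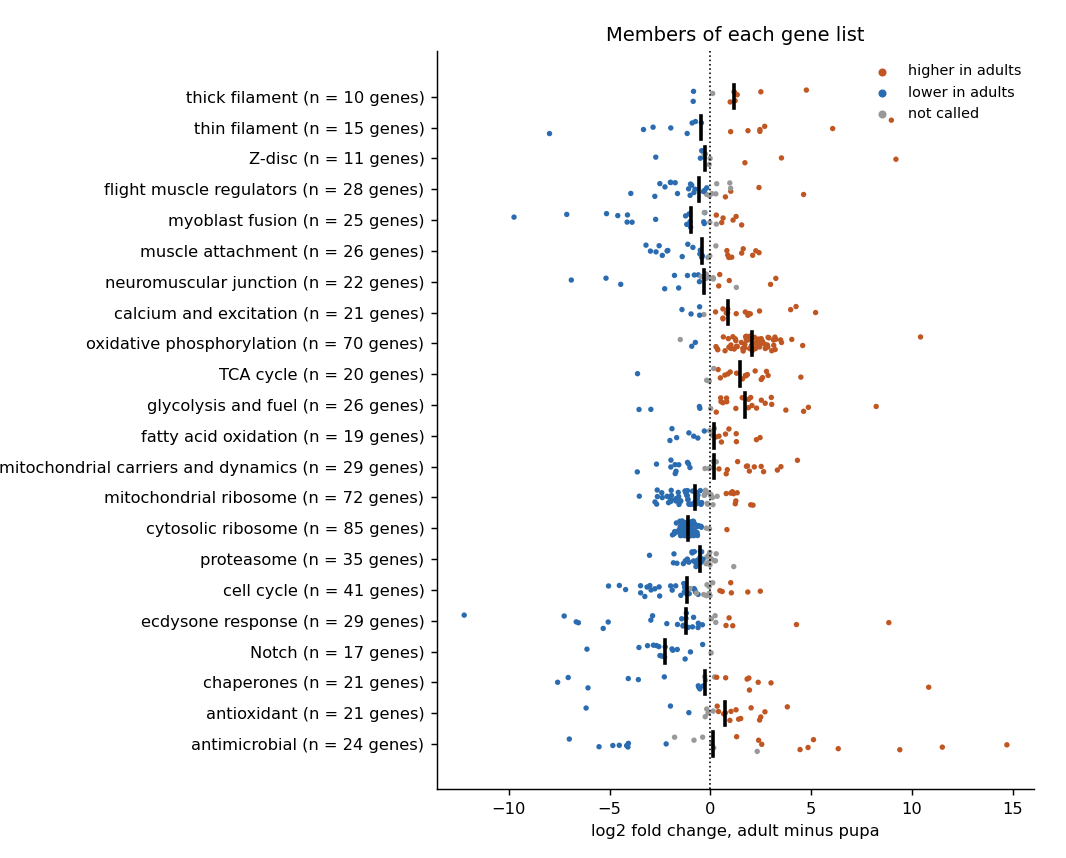
Log2 fold change, adult minus pupa, of each tested member of each gene list (x axis, one point per gene, coloured by call), with the median of all tested genes as a dotted line. Members of oxidative phosphorylation lie to the right (67 of 70 higher), and those of the cytosolic ribosome (82 of 85 lower) and of Notch signalling (16 of 17 lower) to the left.

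Genes that couple the nerve impulse to contraction rose more often than they fell: 16 of 21 rose and 4 fell (median 0.86). All 8 channel genes rose (median 1.94). The chloride channel gene ClC-a had 7.29, 11.9 and 8.34 CPM in pupae and 173, 131 and 132 CPM in adults (log2 fold change 3.99 ± 0.21, adjusted p = 1.20e-08), and the inward rectifier Irk2 had 0.958, 2.06 and 0.407 CPM and 36.0, 50.0 and 35.0 CPM (log2 fold change 5.22 ± 0.41, adjusted p = 6.53e-07). The calcium-activated potassium channel slo rose by 1.90 (adjusted p = 1.43e-07). The stages were separate for each.

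Calx, the sodium and calcium exchanger, rose by 4.26 and the channel subunit Ca-beta by 1.86 (adjusted p = 4.69e-06 and 2.45e-07). SERCA, the calcium pump of the reticulum, rose by 0.63, and the triad gene stac fell by 1.41 (adjusted p = 0.00383 and 0.000107). The release channel RyR did not pass (log2 fold change -0.32 ± 0.17, adjusted p = 0.118). The regulator genes SclA and SclB had no count in any of the 6 libraries.

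On the muscle side of the synapse, of 22 genes 5 rose and 10 fell (median -0.33, and -0.15 without adult replicate 3). The glutamate receptor subunits GluRIIA, GluRIIB and GluRIIC fell by 4.44, 6.90 and 5.17 (adjusted p = 1.95e-08, 1.44e-08 and 2.90e-09), with GluRIIA at 28.8, 32.5 and 38.9 CPM in pupae and 1.27, 1.86 and 1.48 CPM in adults. The junction scaffold cora had 102, 107 and 98.5 CPM and 1017, 859.7 and 1058 CPM (log2 fold change 3.25 ± 0.12, adjusted p = 1.04e-09), and the spectrins alpha-Spec and beta-Spec fell by 1.57 and 1.78 (adjusted p = 1.11e-07 and 3.08e-08). Nlg1, a neuroligin, did not pass (log2 fold change -0.20 ± 0.18, adjusted p = 0.331). Arc1, the capsid-forming gene known from synapses, rose by 2.76 (adjusted p = 4.53e-06).

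Chaperone genes moved in both directions, 8 of 21 higher and 10 lower (median -0.28, and -0.15 or -0.17 without adult or pupal replicate 1). Among small heat shock proteins, Hsp23 had 2102, 2036 and 1853 CPM in pupae and 9.04, 10.9 and 11.5 CPM in adults (log2 fold change -7.57 ± 0.56, adjusted p = 5.03e-07), and Hsp27 and Hsp26 fell by 6.07 and 4.07 (adjusted p = 3.23e-05 and 0.000136). CG7409, of the same family, had 0.16, 0.272 and 0.125 CPM and 269, 334 and 383 CPM (log2 fold change 10.84 ± 0.27, adjusted p = 1.74e-10). The mitochondrial chaperonin Hsp60A fell by 2.28 (adjusted p = 6.17e-08), and stv, the co-chaperone of filamin turnover, rose by 1.94 (adjusted p = 4.49e-07).

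Of 21 antioxidant and metal-binding genes 14 rose and 3 fell (median 0.75). Gclc, the rate-limiting step of glutathione synthesis, went from 9.43 ± 1.66 CPM in pupae to 134 ± 29.6 CPM in adults (SD, n = 3), with separate ranges (log2 fold change 3.82 ± 0.20, adjusted p = 1.19e-08), and its regulator cnc rose by 2.45 (adjusted p = 7.74e-10). The ferritin subunits Fer2LCH and Fer1HCH rose by 2.71 and 2.03 (adjusted p = 3.03e-08 and 3.30e-07). These ferritin genes overlap each other on opposite strands. The mitochondrial peroxiredoxin Prx3 fell by 1.98 while mitochondrial Sod2 rose by 1.28 (adjusted p = 6.08e-09 and 3.06e-06). Catalase, Cat, did not pass (log2 fold change -0.25 ± 0.16, adjusted p = 0.185).

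Of 10 autophagy genes 6 rose and 3 fell. The cargo receptor ref(2)P, the membrane protein Atg8a and the factor Mitf rose by 2.53, 1.88 and 2.61 (adjusted p = 1.94e-09, 2.05e-07 and 3.87e-09), and the kinase Atg1 fell by 0.97 (adjusted p = 4.49e-05).

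The largest single differences lay partly outside muscle biology. Among the 15 largest rises were Yp1 and Yp2, yolk proteins of the female fat body and ovary, with Yp1 at 0.106, 0.163 and 0.0313 CPM in pupae and 17141, 18711 and 14575 CPM in adults (log2 fold change 17.47 ± 1.47, adjusted p = 2.19e-06). The digestive proteases Jon99Cii, Jon65Aiii and yip7 had 264, 652 and 19.2 CPM, 1165, 2329 and 139 CPM and 1022, 1800.2 and 59.8 CPM in adults. In all 3 proteases adult replicate 2 was highest and replicate 3 lowest.

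Genes without a count in any pupal library were higher by at least 23318-fold (to), 7186-fold (Jon99Cii), 5457-fold (TotC, a stress-induced secreted peptide), 3059.7-fold (Bace), 3018-fold (Jhbp13), 2945-fold and 2899.8-fold (the immune peptides BomS2 and BomBc2) and 2155-fold (Ugt35B1), set against a floor of 3 counts over the pupal group. Muc68D, lcs and whe were the other large rises, with 3893, 14374 and 4996 CPM, 2489, 2892 and 2012 CPM and 1228, 1519 and 1060.4 CPM in adults. In all, 33 genes had 0 counts in pupae and at least 20 CPM in adults, and 3 genes the reverse.

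The 15 largest falls included the muscle genes betaTub60D, alphaTub85E and lmd given above. They also held ImpE2, an ecdysone-inducible gene, at 588, 521 and 718 CPM in pupae and 0.127, 0.114 and 0.129 CPM in adults, and genes of cuticle and epidermal matrix. The cuticle gene Cpr12A had 35.7, 25.5 and 33.9 CPM in pupae and no count in adults, at least 939-fold lower. Cpr72Ea and the zona pellucida domain genes nyo and neo fell by 11.96, 10.22 and 9.09 (adjusted p = 4.31e-08, 4.38e-07 and 5.24e-10). The serpins Spn100A and Spn43Aa fell by 12.34 and 11.66 (adjusted p = 5.59e-10 and 5.47e-11). The remaining ones were nw, uncNacbeta, Obp56a, frac and dsx-c73A.

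Markers of other tissues changed with the stage. Of 16 fat body genes 10 rose, among them the lipid carrier apolpp, and 5 larval and pupal storage genes fell, such as Fbp1 and Lsp1alpha. Their summed level was 9713 to 17904 CPM in pupae and 54736 to 66263 CPM in adults. Yp1, Yp2 and Yp3 made up 33612 to 42167 CPM of each adult sum, and without them the sums overlapped, at 9710 to 17899 CPM in pupae and 16199 to 24096 CPM in adults. Of 12 gut genes tested 10 rose and 1 fell, and the sum over all 13 was 1.22 to 7.06 CPM in pupae and 3856, 7536 and 577 CPM in the adult libraries, with Jon25Bii, deltaTry and epsilonTry at 0 in pupae. Haemocyte genes (9 of 10 higher, 1 lower) summed to 337 to 397 CPM in pupae and 2329 to 3669 CPM in adults. Without Ppn and Hml, their members of highest adult CPM, they summed to 208 to 261 and 394 to 584 CPM. The gene that fell was NimC4 (log2 fold change -6.96 ± 0.43, adjusted p = 9.49e-08). Glial genes (4 of 9 higher, 3 lower) summed to 309 to 325 CPM in pupae and 1782 to 1910 CPM in adults. Without Gs2 and Eaat1 they summed to 215 to 234 and 336 to 393 CPM. The rise that remained lay in nrv2, at 87.2, 97.5 and 105 CPM in pupae and 241, 257 and 296 CPM in adults. The glial factor repo itself fell (log2 fold change -0.49 ± 0.18, adjusted p = 0.03), and so did loco and Gli, by 0.90 and 0.82 (adjusted p = 3.74e-06 and 0.00149).

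The summed level of neuron genes (5 of 14 higher, 3 lower) was 717 to 796 CPM in pupae and 312 to 491 CPM in adults. This difference lay in futsch, without which the sums overlapped, at 252 to 307 CPM in pupae and 210.2 to 330 CPM in adults. Tracheal genes (3 of 10 higher, 6 lower) summed to 811 to 977 CPM in pupae and 243 to 258 CPM in adults. Without tnc, which fell, they summed to 359 to 401 and 215 to 231 CPM. Those higher were trh, btl and dysf, by 1.10, 1.45 and 2.10 (adjusted p = 0.000373, 4.13e-05 and 0.0139). Tendon genes (1 of 7 higher, 6 lower) summed to 819 to 1017 CPM in pupae and 688 to 793 CPM in adults. Without Alk, which rose, they summed to 701 to 906 and 359 to 406 CPM. Of 8 markers of adult muscle precursors 7 fell and none rose, from 600.3 to 661 CPM in sum to 281 to 345 CPM. Without N, which fell, they summed to 391 to 459 CPM in pupae and 241 to 310 CPM in adults. The fall that remained lay largely in lmd, while vg did not pass and twi was low at both stages. Of 10 tested epidermis and cuticle genes 3 rose and 6 fell, and the sum over 16 was 68.8 to 90.6 CPM in pupae and 159.5 to 358 CPM in adults. Without ple and Ddc, which rose, it was lower in adults, at 60.6 to 77.0 CPM in pupae and 16.8 to 43.8 CPM in adults. That fall rested on dsx-c73A, at 41.1, 58.5 and 57.2 CPM in pupae and at most 0.0322 CPM in adults. Gonad (17) and eye (9) genes stayed at or below 26.0 CPM in all libraries. Of the gonad genes SP, Vm26Aa and Vm26Ab were at 0 in all 6. The part of these tissues in the changes of secreted, digestive, immune and matrix genes was not tested.

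Of 24 immune genes, 10 rose and 8 fell (median 0.12). The sign of that median was not stable: it was -0.09 without pupal replicate 2 and 0.58 without pupal replicate 1, and lay between these without each of the other 4. The Bomanin BomS1 had 38.4, 65.7 and 65.0 CPM in adults and at most 0.0532 CPM in pupae (log2 fold change 11.51 ± 0.74, adjusted p = 1.30e-07), whereas the defensin gene Def had 83.8, 54.6 and 41.4 CPM in pupae and 1.18, 1.44 and 1.29 CPM in adults (log2 fold change -5.52 ± 0.51, adjusted p = 3.44e-06). The cecropin CecC fell by 4.83 (adjusted p = 1.87e-05). Drs, drosomycin, did not pass (log2 fold change 0.08 ± 0.57, adjusted p = 0.909). Cuticle protein genes fell in 27 of 45 cases and rose in 12 (median -1.93).

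**Figure D4:**
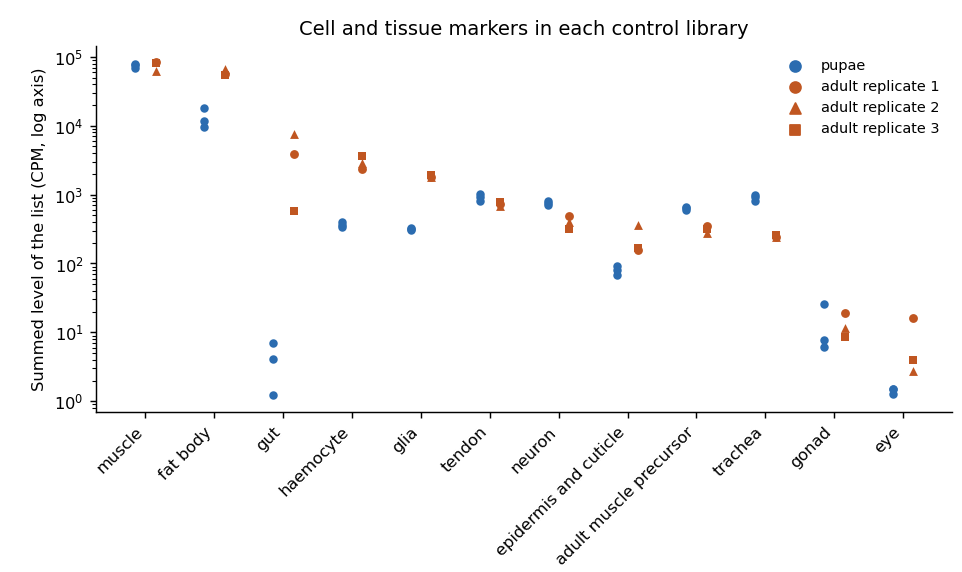
Summed CPM of marker genes of each tissue or cell type (log y axis) in each control library, pupae and adults in separate colours and the adult replicates with separate symbols. Muscle markers overlap between the stages, haemocyte markers are higher in all adult libraries, fat body markers are so through Yp1, Yp2 and Yp3, and gut markers run from 577 to 7536 CPM among adults.

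To see which of these changes also occurred in another tissue of the same age, the stage difference was compared with that of the control nerve cord in a fit of all 24 libraries. List values given here cover the members that were also tested in the 12 muscle libraries. Of 12631 genes tested, 53.0% differed in their stage change between the tissues, 26.4% more positive and 26.6% more negative in IFM. In that fit oxidative phosphorylation genes had a median of 2.03 in muscle and 1.06 in VNC, and for 54 of 70 the muscle change was more positive. In the cytosolic ribosome the VNC median was -0.17 against -1.12 in muscle, and 78 of 85 genes were more negative in muscle. The mitochondrial ribosome had a VNC median of 0.39 against -0.77, with 58 of 72 more negative in muscle and 5 more positive.

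The proteasome ran opposite: its VNC median was -1.24 against -0.54 in muscle, and the muscle change was more positive for 20 of 35 genes and more negative for 2. All 5 fusion surface genes fell further in muscle (VNC median -1.78 against -4.15). Of 11 genes of mitochondrial DNA upkeep and biogenesis 9 had a more negative change in muscle.

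Single genes show how far the tissues differed. Zasp66 went from 9.75 ± 2.51 to 5643 ± 787 CPM in IFM and from 3.56 ± 0.182 to 27.8 ± 9.05 CPM in VNC (difference of log2 changes 6.21 ± 0.47, adjusted p = 1.39e-09). Act57B went from 359 ± 58.5 to 2283 ± 299.6 CPM in IFM and from 20.4 ± 4.20 to 13.0 ± 3.33 CPM in VNC (difference 3.32 ± 0.33, adjusted p = 6.01e-08). Both genes were lower in nerve cord than in muscle at either stage, and pupal Zasp66 was low in both tissues. Glyp went from 39.0 ± 6.21 to 1114 ± 54.9 CPM in IFM and from 131 ± 4.79 to 326 ± 13.9 CPM in VNC (difference 3.52 ± 0.16, adjusted p = 1.07e-12).

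Argk1 went from 9057 ± 789 to 767 ± 39.7 CPM in IFM and from 1418 ± 35.2 to 1297 ± 63.9 CPM in VNC (difference -3.43 ± 0.16, adjusted p = 1.24e-12). Hsp60A went from 1121 ± 91.3 to 228 ± 17.1 CPM in IFM and from 172 ± 4.51 to 541 ± 38.2 CPM in VNC (difference -3.95 ± 0.21, adjusted p = 9.22e-12). mtDNA-helicase went from 45.2 ± 2.04 to 3.62 ± 0.652 CPM in IFM and from 2.12 ± 0.423 to 3.31 ± 0.433 CPM in VNC (difference -4.29 ± 0.27, adjusted p = 8.38e-11). The fall of the chaperonin in muscle thus stood beside a rise in the nerve cord.

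The difference was not shown for every muscle gene. Mf had a log2 change of 4.13 in VNC and Prm of 1.79, and the muscle change minus the nerve cord change was 0.62 ± 0.39 and -0.46 ± 0.55 (adjusted p = 0.192 and 0.499). For TpnC41C, with 2.23 in VNC, the difference was 0.21 ± 0.46 (adjusted p = 0.727). Its levels were far lower in VNC, at 0.933 ± 0.402 CPM in pupae and 4.50 ± 1.41 CPM in adults (SD, n = 3). In IFM they were 42.0 ± 3.62 and 227.6 ± 19.9 CPM. A like log2 change thus does not mean a like level. For the ecdysone-inducible ImpE2 it was 0.94 ± 0.98 (adjusted p = 0.434). None of these passed the threshold, which does not show that the tissues changed alike.

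**Figure D5:**
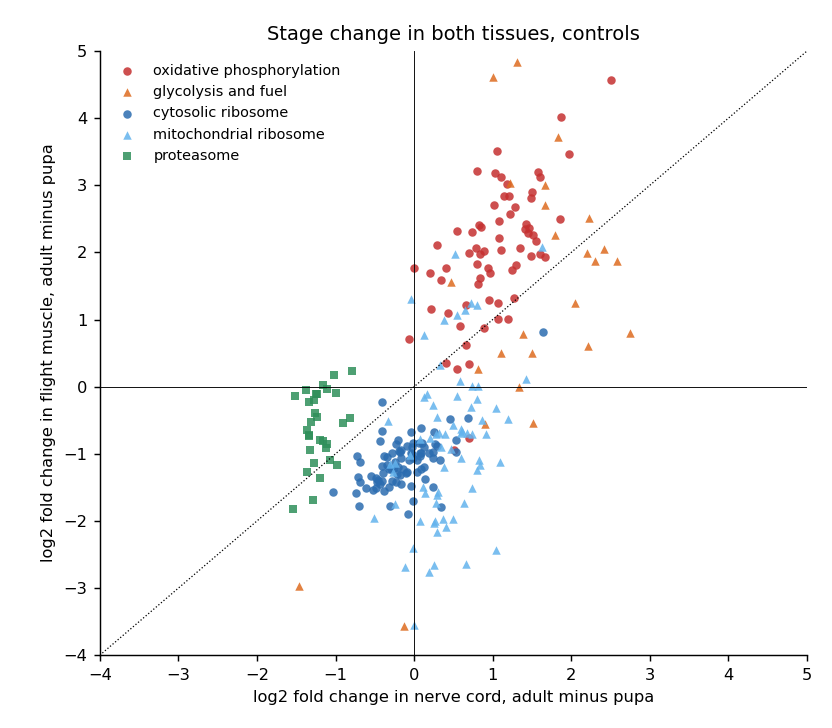
Log2 stage change in flight muscle (y axis) against that in nerve cord (x axis) for genes of 5 lists in control libraries, one point per gene, 280 of 297 genes plotted and 17 with all group means under 5 CPM or beyond the axes left out. Most cytosolic and mitochondrial ribosome genes lie below the dotted line of equal change, and most oxidative phosphorylation genes above it.

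The stage contrast was repeated in the 6 IFM libraries of MeHg-fed animals, which share no library with the control contrast. Both contrasts came from the same model of 12 libraries and share its dispersion estimates. The MeHg pupal libraries carry the tags of the control pupae (7_1 and 7_7). Adult replicates 1 and 3 carry that of the control adults (7_10), and adult replicate 4 carries 7_28. Tag and stage cannot be told apart here either. Of the 8445 genes called in controls, 8266 had the same sign there and 7563 (89.6%) were also called with that sign, while 34 were called in the opposite direction. Across 11347 genes, which are not independent replicates, the fold changes had a Pearson correlation of 0.93. In MeHg-fed animals the log2 fold change of Act57B was 2.19, that of TpnC73F -7.12 and that of Zasp66 9.14. The median difference in size between the diets was 0.34 on the log2 scale. The connecting filament gene sls stood at 0.12 with MeHg against 1.18 in controls. Citrate synthase, kdn, which did not pass in controls (-0.05), rose by 1.46 with MeHg (adjusted p = 1.09e-05). How these diets differ was not analysed here.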

How the data were processed

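Total RNA was made into 24 libraries with a kit that marks the strand, per the labels' protocols. The authors deposited raw whole-number counts of 17545 genes in each library. Among tools, the submitters' processing notes list STAR (2.7.6a), featureCounts and Subread (2.0.1), bcl2fastq (2.19.0) and the build dm6. The strand setting is not given in the sources used here, so overlapping genes of opposite strands are uncertain, as are close paralogs. The 24 count files hold the same values as the series table, whose normalised companion was not used here. RefSeq symbols were matched to 17503 genes, and exon lengths, taken from Ensembl gene models on that same assembly, to 99.6%.

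The gene lists and the comparisons were chosen with earlier results of these data known. Counts were tested with edgeR 4.0.16 in R 4.3.3 (TMM, filterByExpr, robust quasi-likelihood F test, Benjamini-Hochberg over all tested genes, called under 0.05). A group-means model of all 12 IFM libraries (11347 genes, 8 residual degrees of freedom) gave the control and MeHg stage contrasts, and a model of all 24 (12631 genes, 16 residual degrees of freedom) the interaction with VNC. CPM of the first model are scaled over the 12 libraries and those set beside VNC over the 24. A list was described by its counts and its median, with no test of its own. Levels of different genes were compared only per kb of exon. A fold against a group without counts was set against a floor of 3 counts.

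Genes named are the 15 largest rises and falls with separate ranges and at least 20 CPM, all sarcomere and regulator list members, and in other lists mainly the largest changes above 5 CPM with some that did not pass, besides a few chosen for their role after their values were seen. On simulated data for this contrast (10324 genes) the test recovered 36.1% of 1.5-fold, 84.8% of 2-fold and 93.2% of 4-fold changes, and 11 of its 157 calls were false. Only 61, 66 and 73 genes were changed by these folds there, up or down, all of at least 5 CPM. In the real contrast 74.4% of genes were called, so these rates do not carry over to it. Replicate pairs were not identical (chi-square per degree of freedom 29.3 to 214). The alternatives included RLE scaling, no low-count filter, DESeq2 1.42.0, limma 3.58.1 voom, other library sets, a 2-fold threshold, a replicate block and the removal of each library. Marker sums without the genes that carry them, and list medians over fixed members, were added after seeing the data. Sequences and promoters were not analysed here.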

Additional observations from a re-analysis of the deposited data

Results flagged for a closer look

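Results are listed here because the stage change differed between flight muscle and nerve cord by the interaction test of edgeR, over controls. The number of such genes was 6700 of 12631 tested. Values are the muscle log2 change minus the nerve cord log2 change, with the approximate standard error defined above and the Benjamini-Hochberg adjusted p.

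Among genes named above, the difference was 6.21 ± 0.47 for Zasp66 and 3.32 ± 0.33 for Act57B (adjusted p = 1.39e-09 and 6.01e-08). It was 2.80 ± 0.32 for Strn-Mlck, -2.94 ± 0.21 for Mef2 and -4.92 ± 0.55 for TpnC73F (adjusted p = 3.71e-07, 4.80e-10 and 3.31e-07). In nerve cord Strn-Mlck had a log2 change of -1.59 and Mef2 of 1.17, both opposite in sign to muscle. In metabolism it was 3.52 ± 0.16 for Glyp, 2.63 ± 0.16 for Ogdh and -3.43 ± 0.16 for Argk1 (adjusted p = 1.07e-12, 5.72e-11 and 1.24e-12). For Hsp60A it was -3.95 ± 0.21 and for mtDNA-helicase -4.29 ± 0.27 (adjusted p = 9.22e-12 and 8.38e-11).

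The largest positive differences were 10.78 ± 3.82 for Bace, 8.98 ± 0.34 for b, which makes beta-alanine, 8.36 ± 2.38 for BomS2 and 8.28 ± 0.57 for Cpr62Bb (adjusted p = 0.0259, 9.96e-14, 0.00696 and 3.18e-10). They went on with 8.19 ± 1.69 for Jhbp1, 8.15 ± 1.32 for yellow-f2, 8.03 ± 2.40 for ND-B8 and 8.01 ± 0.83 for sxe2 (adjusted p = 0.000485, 4.57e-05, 0.00836 and 1.17e-07). Bace, BomS2 and yellow-f2 had no count in pupal muscle, so their fitted values depend on the prior count. The call of Bace held in 12 of 16 alternatives and that of ND-B8 in 15.

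The largest negative differences were -10.60 ± 1.01 for the nuclear receptor Hr38, -9.28 ± 1.80 for SdhBL, -7.91 ± 0.42 for SmydA-5 and -7.88 ± 0.35 for the guanylate cyclase gene Gyc89Db (adjusted p = 6.02e-08, 0.000266, 9.24e-12 and 6.64e-13). For Nepl5 it was -7.61 ± 0.38, for the cyclase gene Gyc88E -6.98 ± 0.19, for GluRIIA -6.88 ± 0.27 and for Acsx3 -6.80 ± 1.21 (adjusted p = 3.47e-12, 2.74e-15, 1.67e-13 and 0.000104). Hr38, GluRIIA, Gyc88E, Nepl5 and SmydA-5 fell in muscle and rose in nerve cord. Acsx3 rose in both tissues, by 4.03 in muscle and by 10.83 in nerve cord. Its pupal muscle libraries were uneven, at 0.160, 4.62 and 0.0627 CPM. The call of SdhBL held in 15 of 16 alternatives, with a highest adjusted p of 0.461. In nerve cord SdhBL was low and uneven, at 0.463 ± 0.627 CPM in pupae and 1.54 ± 2.62 CPM in adults (SD, n = 3). Its own change there did not pass (adjusted p = 0.246).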

How the results depend on the processing

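Over 16 alternatives and 714 single genes, 10799 of 11412 values kept direction and call, 517 lost the call, 96 gained it and 0 reversed, and 424 genes kept both throughout. Of 1024 list counts 973 stayed within 1.5 times, and of 432 list medians 404 moved by less than their spread. The count of genes called was 4823 (2622 higher and 2201 lower) against a 2-fold threshold, by that test's construction, 7605 with the replicate block in the 6 control libraries (3931 higher and 3674 lower), 8498 by DESeq2 and 7998 to 8199 without single replicates. The interaction count was 6413 with a replicate block and 6231 to 6729 without single replicates. Same-numbered libraries did not deviate together in every pair (r = -0.07, 0.25 and 0.22), and only replicates 2 and 3 correlated best with their own number, so the numbers were not taken as pairs. Causes of the following shifts were not tested. With no low-count filter the list medians of Notch, TCA cycle, glycolysis, muscle attachment and autophagy genes were -2.12, 1.58, 1.87, -0.27 and 0.40. With the length trend removed, an alternative chosen after seeing the data, the Notch median was -2.12. With all 24 libraries those of autophagy and proteasome genes were 0.25 and -0.77 over the 11 and 42 members tested there, but 0.72 and -0.54 over the 10 and 35 tested in the 12, and without rRNA and mitochondrial-genome genes the autophagy one was 0.81. Without single replicates the autophagy median ran from 0.26 to 0.80, and from 0.72 to 0.87 over those 10. The lowest and highest values of other lists were -1.17 to -0.99 (ecdysone response), 1.72 to 1.83 (glycolysis), -0.43 to -0.15 (neuromuscular junction), -0.76 to -0.56 (proteasome) and -1.10 to 0.88 (10 paralogs of oxidative phosphorylation genes). The paralogs' median was -0.17, against 0.45 in a fit of only the 6 control libraries, 0.42 there with the replicate block, -1.02 in a fit of 24, -1.38 with no filter and 0.75 by voom. As shares of the family total per kb, the log2 changes were 4.01 for Act57B, 1.14 for Act5C (-0.22 as a level), -0.65 for Act88F, 10.14 for TpnC4, 3.65 for TpnC41C and -6.77 for TpnC73F. Low counts limit genes under about 1 CPM, where counting error is large.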

Other observations

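The genes with the most reads per length turned over between the stages. Apart from the short RNA gene RNaseMRP:RNA, which led at both stages and did not differ at the threshold (18167 ± 1767 CPM per kb in pupae and 17081 ± 3893 in adults, SD, n = 3; adjusted p = 0.677 by edgeR), the pupal libraries were headed by Act88F (9418 ± 853 CPM per kb), RpL41 (7949 ± 1191), alphaTub84B (7418 ± 53.1) and betaTub60D (5784 ± 369.9). In adults these stood at 2421 ± 574, 2476 ± 520.1, 275 ± 9.38 and 5.17 ± 1.74 CPM per kb. The adult libraries were headed by Yp1 (10434 ± 1296 CPM per kb), by CG14645, which varied widely (9624 ± 6609), and by Yp2 (6514 ± 871).

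Of the 20 highest genes in adults 7 belonged to the respiratory chain list: Cyt-c-p, ND-MLRQ, UQCR-14, ox, ND-51, levy and cype stood between 2792 and 4795 CPM per kb, all from at most 531 CPM per kb in pupae. IscU, the scaffold for iron-sulphur clusters, rose from 53.3 ± 3.65 to 3164 ± 373 CPM per kb (log2 fold change 5.89, adjusted p = 1.19e-10), and Npl4, a partner of the segregase that extracts ubiquitylated proteins, from 26.3 ± 3.77 to 2767 ± 311 (log2 fold change 6.72, adjusted p = 2.71e-10). The actin-severing gene tsr, cofilin, and eEF1alpha2 fell by 3.38 and 2.52 on the log2 scale (adjusted p = 2.03e-09 and 2.19e-07). IscU, Npl4, tsr and eEF1alpha2 belong to no gene list used above and are named for their rank per length.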
